A study of Mus musculus with 6 samples.

Results

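The mitotic spindle and kinetochore genes encode the proteins that take a cell from the end of G2 through chromosome alignment, chromosome separation and cytokinesis. The set comprised 50 genes chosen by symbol, and all 50 were found among the 21878 gene symbols listed for each library. Levels are in FPKM, which counts fragments relative to gene length and sequencing depth. All 50 genes had at least 1 FPKM in at least 3 libraries, the filter that left 10449 genes to be tested.

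The libraries came from HSCs sorted from the BM of wild-type mice (C57BL/6, of an age not given in the sources used here) by the gate Lineage-Sca-1+c-Kit+CD34-Flk2-. The labels give 3 control and 3 IGF1 libraries. In the study's text, the comparison is with vehicle-treated mice and at day 1 after a single dose of IGF1 (insulin-like growth factor 1), a secreted growth factor, and its methods give subcutaneous recombinant mouse IGF1. One label field names IGF-1 as the treatment whereas the field on extraction mentions irradiated mice, and the treatment field was followed. No source used here states whether the libraries of a group came from separate animals, so p-values measure the spread between libraries, which may be technical. Since each library pools many cells, fewer dividing cells and less mitotic RNA per cell cannot be told apart.

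Entry into mitosis depends on the kinase CDK1 with its cyclin partners, and exit depends on the anaphase-promoting complex (APC/C), a ubiquitin ligase that removes cyclin B. Kinetochores, built on centromeres marked by a variant histone, tie chromosomes to spindle microtubules, and a checkpoint holds back the APC/C until all are attached. Most of these genes are transcribed in waves that peak late in the cell cycle, and adult HSCs are known for spending most of their time out of the cycle.

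The depth was 11325386 to 16119231 reads per library. Control replicate 2 stood apart from the other controls. Its counts differed from those of control replicates 1 and 3 by a chi-squared of 227 and 228 per gene, against 1.51 between replicates 1 and 3, and from those of the IGF1 libraries by 24.3 to 27.6, which differed from each other by 1.68 to 1.88. It was kept as a control, as labelled. Whether that label is right was not tested, and values over all 6 libraries rest on it. Among the mitotic genes, the median range over the 3 control libraries was 0.67 on the log2(FPKM + 1) scale, against 0.04 over control replicates 1 and 3 and 0.08 over the 3 IGF1 libraries. The main results are therefore given with and without control replicate 2. Fold changes depended on the scaling as well. Over all genes tested the log2 fold change had a median of -0.18 on the deposited values, -0.01 after quantile normalization and 0.06 after scaling to the 75th percentile, and 1.98% of all genes were called higher and 4.63% lower on the deposited values against 3.82% and 2.02% after 75th percentile scaling.

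Most mitotic genes were at lower values in the HSCs of mice given IGF1 than in those of vehicle-treated mice, whereas a smaller number, led by Mki67, were at higher values, 12 of the 50 turning sign in at least 1 of 21 alternative settings. The log2 fold change (IGF1 minus control, on log2(FPKM + 1)) was below 0 for 38 of the 50 genes (76%), and 59.6% of all genes tested lay below 0. The median over the 50 genes was -0.57, beside -0.18 over all genes tested. After quantile normalization it was -0.39, beside -0.01, and after 75th percentile scaling -0.30, beside 0.06. With limma, 5 mitotic genes (10%) were called lower at a fold over 2 and an adjusted p under 0.05, where the background was 4.63%. They were Ccnb1, Aurkb, Ttk, Nuf2 and Oip5. On the adjusted p alone, 15 (30%) were lower, where the background was 14.1%, and 0 higher (background 6.26%). No mitotic gene was called higher by limma (background 1.98%). At an unadjusted p under 0.05, 29 of the 50 were lower (background 34.4%) and 3 of the 50 higher (background 19%). Voom on recovered reads called 0 of the 50 higher (background 3.62%) and 5 of the 50 lower (background 6.54%).

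These counts turned on single libraries. Without control replicate 2, the calls were 18 lower (36%, background 20.6%) and 2 higher (4%, background 12.3%), the latter being Mki67 and Cenpm. When any 1 of the other 5 libraries was left out, no mitotic gene was called in either direction, and 0% of all genes were called. At an unadjusted p under 0.05, 18 to 23 of the 50 were then lower (background 19.3% to 20.8%) and 1 of the 50 higher (background 9.18% to 9.89%). After quantile normalization no mitotic gene was called (backgrounds 2.97% higher and 2.58% lower). At an unadjusted p under 0.05, 26 of the 50 were lower (background 26.7%) and 3 of the 50 higher (background 25.4%) in that setting. Scaling to the 75th percentile left 2 genes called lower, Ccnb1 and Nuf2, and 1 called higher, Cenpm. With control replicate 2 left out as well, both scalings called 11 genes lower (22%, backgrounds 13.5% and 11.9%), quantile normalization 2 higher (background 14.7%) and 75th percentile scaling 4 higher (background 18%). The groups did not overlap for 31 mitotic genes that were lower in IGF1 (62%, background 37.4%) and for 4 that were higher, Mki67, Cenpm, Cenpa and Cdca8 (8%, background 21.9%).

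**Figure D1:**
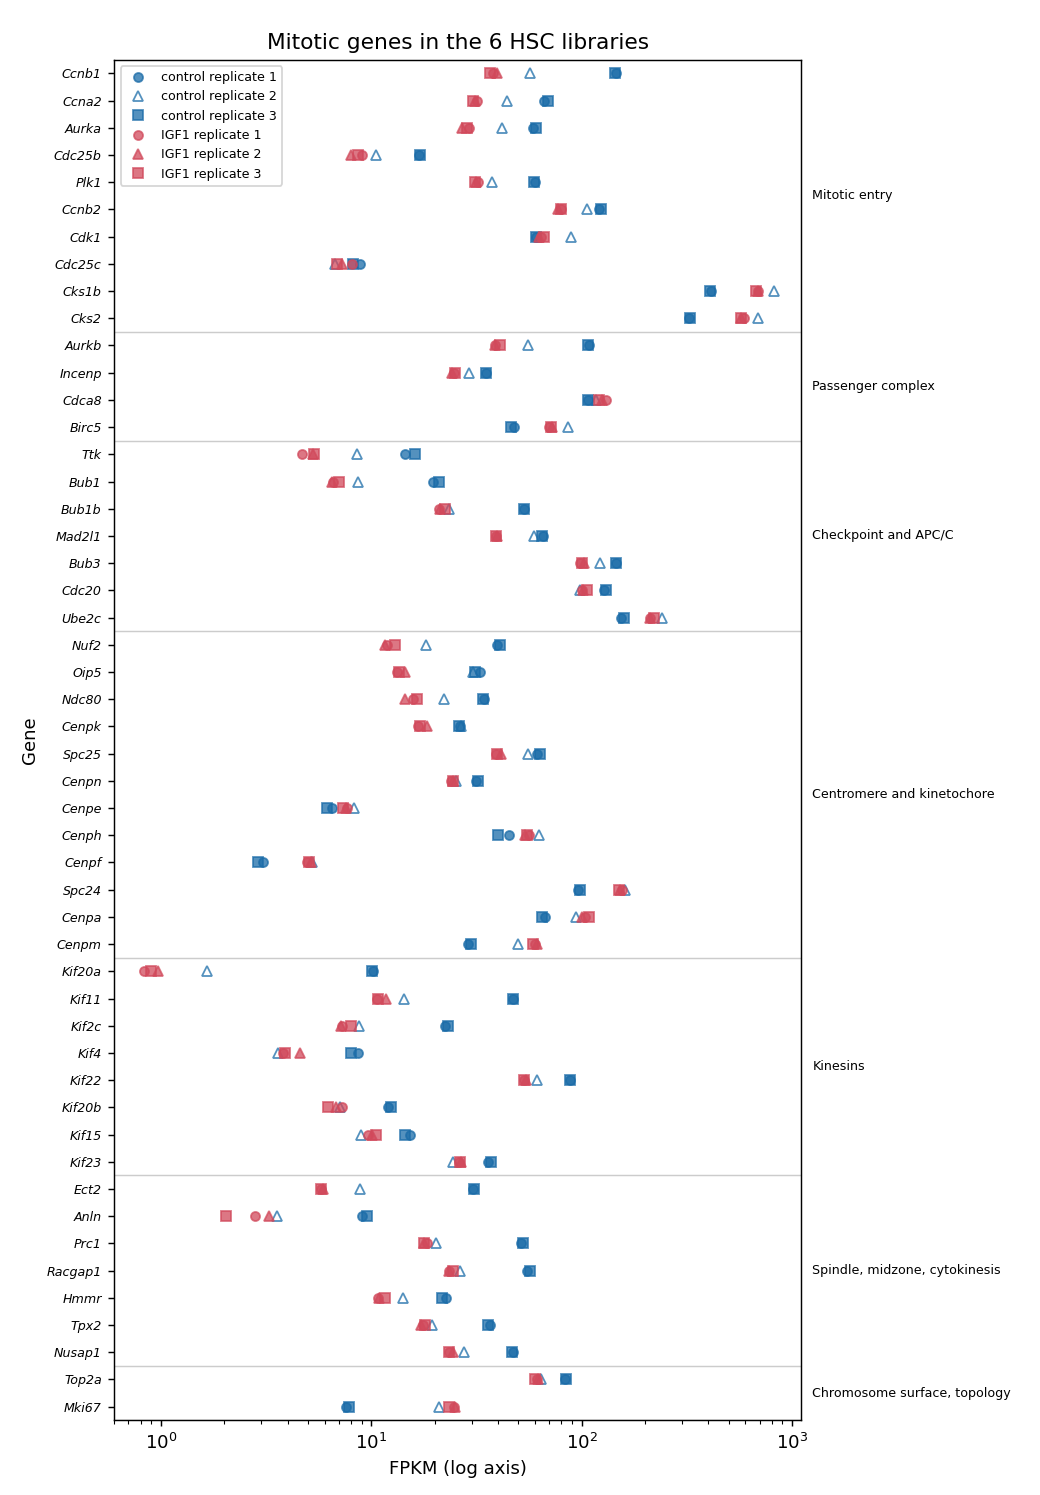
FPKM of the 50 mitotic genes (rows, grouped by role) in each of the 6 libraries, on a log axis, with controls in blue and IGF1 in red and control replicate 2 as open triangles. The 3 IGF1 points of a gene mostly coincide, control replicates 1 and 3 coincide, and control replicate 2 lies nearer to the IGF1 points for most genes. IGF1 and control values do not overlap for 31 genes on the lower side and 4 on the higher side.

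Promoters of 5 genes are shown because these genes lie at both ends of the log2 fold changes, Mki67 and Cenpm at the upper end and Ect2, Kif11 and Ccnb1 near the lower end. Late cell cycle genes are known for promoters with a CHR element (cell cycle genes homology region), bound by the DREAM and MuvB complexes, and CCAAT boxes, bound by NF-Y. Each line gives the 250 bases before the RefSeq start site (GRCm38.p6), 5′ to 3′ on the strand of the gene, with matches to TTTGAA or TTCGAA (taken as the CHR) and to CCAAT, each on either strand, in capitals. The windows are chr7:135716380-135716629 (minus strand) for Mki67, chr15:82244337-82244586 (minus) for Cenpm, chr3:27153879-27154128 (minus, the first of 2 listed promoters) for Ect2, chr19:37376132-37376381 (plus) for Kif11 and chr13:100786487-100786736 (minus) for Ccnb1. In the GENCODE annotation of this build the Cenpm gene starts further out, so that its window lies within the annotated gene, and the Ccnb1 window does so in part.
Mki67: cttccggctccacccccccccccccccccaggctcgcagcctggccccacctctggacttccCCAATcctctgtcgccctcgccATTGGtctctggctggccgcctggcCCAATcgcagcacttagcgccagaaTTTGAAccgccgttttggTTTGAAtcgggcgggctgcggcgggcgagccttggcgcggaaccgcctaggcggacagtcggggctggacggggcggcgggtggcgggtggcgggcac
Cenpm: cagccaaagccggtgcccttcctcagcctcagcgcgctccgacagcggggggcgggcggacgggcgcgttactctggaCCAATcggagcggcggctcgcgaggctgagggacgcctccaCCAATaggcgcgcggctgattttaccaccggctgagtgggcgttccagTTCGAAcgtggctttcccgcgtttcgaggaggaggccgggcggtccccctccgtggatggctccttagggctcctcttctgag
Ect2: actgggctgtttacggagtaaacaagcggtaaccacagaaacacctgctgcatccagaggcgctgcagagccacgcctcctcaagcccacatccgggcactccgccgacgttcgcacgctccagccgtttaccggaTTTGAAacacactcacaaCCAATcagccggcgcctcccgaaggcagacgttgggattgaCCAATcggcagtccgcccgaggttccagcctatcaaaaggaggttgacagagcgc
Kif11: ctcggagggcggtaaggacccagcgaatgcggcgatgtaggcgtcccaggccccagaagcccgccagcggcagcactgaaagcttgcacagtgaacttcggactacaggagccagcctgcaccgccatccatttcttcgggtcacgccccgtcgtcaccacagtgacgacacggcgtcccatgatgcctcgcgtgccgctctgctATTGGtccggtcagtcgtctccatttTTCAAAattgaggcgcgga
Ccnb1: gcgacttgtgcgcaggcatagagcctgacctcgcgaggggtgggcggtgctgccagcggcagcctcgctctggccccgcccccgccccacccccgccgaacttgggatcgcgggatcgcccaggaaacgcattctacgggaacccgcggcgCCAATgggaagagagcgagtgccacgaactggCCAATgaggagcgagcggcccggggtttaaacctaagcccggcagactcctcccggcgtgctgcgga

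The Mki67 promoter held 2 CHR matches, starting 116 and 98 bases before the start site, and 3 CCAAT matches. Cenpm held 1 CHR match at 83 bases, Ect2 at 114 bases and Kif11 at 19 bases before the start. No match to the 2 searched CHR forms was found in the Ccnb1 window, which held 2 CCAAT matches, at 99 and 67 bases. Other forms of the element were not searched in any promoter, so a CHR of another form would be missed. Of the 43 mitotic genes with a RefSeq promoter, 17 (39.5%) had a CHR match, beside 19.6% of 27025 genes, and 33 (76.7%) had a CCAAT match, beside 37.5%. Both motifs were present in 15 (34.9%), beside 7% of genes. A CHR match was found in 13 of 32 genes (40.6%) with a log2 fold change below 0 and in 4 of 11 (36.4%) above 0, and a CCAAT match in 75% and 81.8%. No promoter was taken for Incenp, Ccna2, Aurkb, Spc24, Kif20a, Cdc25c and Tpx2.

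Mki67 (ENSMUSG00000031004, chr7:135689784-135716361, minus strand), the gene of the Ki67 protein that coats mitotic chromosomes and is widely used as a mark of cycling cells, showed the highest log2 fold change of the 50. In FPKM, and in the order of replicates 1, 2 and 3 as in all values that follow, controls stood at 7.55, 21.0 and 7.83 and IGF1 libraries at 24.8, 24.9 and 23.3. All IGF1 libraries were above all controls, and control replicate 2 lay close beneath the IGF1 libraries. The values rested on 1223, 2453 and 1275 reads in controls and 3107, 2845 and 3037 reads in IGF1. Mki67 thus had a log2 fold change of 1.10 ± 0.38 (SE, n = 3 per group) with an adjusted p = 0.069 from limma, so that it was not called. Without control replicate 2 it was 1.54 ± 0.05, with an adjusted p = 1.53e-09 from limma, and the IGF1 mean was 3.16 times that of control replicates 1 and 3.

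Top2a, which encodes the topoisomerase that untangles sister chromatids and is also used as a proliferation mark, lay on the other side. It was at 83.7, 63.9 and 83.9 FPKM in controls and 61.3, 61.9 and 60.0 FPKM in IGF1. Control replicate 2 was nearest to the IGF1 libraries, and the groups did not overlap. A log2 fold change of -0.32 ± 0.14 resulted, with an adjusted p = 0.0991 from limma, and it turned to 0.20 once trends with gene length and GC content were removed.

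Of the 10 genes of mitotic entry, 8 had a log2 fold change below 0 and 2 above, with a median of -0.62, and 1 was called lower. Ccnb1 (ENSMUSG00000041431, chr13:100778650-100786570, minus strand) encodes cyclin B1, the partner of CDK1 at mitotic entry. It was at 145, 57.0 and 144 FPKM in controls and at 37.9, 39.5 and 36.6 FPKM in IGF1. Every IGF1 library was below every control, and control replicate 2 was closer to IGF1 than to the other controls. Its log2 fold change was -1.46 ± 0.37 with an adjusted p = 0.0467 from limma, and -1.90 ± 0.04 without control replicate 2.

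The kinase gene Cdk1 itself had a log2 fold change of -0.09, with overlapping groups, which was above 0 after quantile (0.08) or 75th percentile (0.18) scaling and without control replicate 2 (0.09). Ccna2, the gene of cyclin A2, passed the adjusted p alone (log2 fold change -0.90, adjusted p = 0.0389 from limma), as did Aurka (-0.88), a kinase of spindle poles, and Ccnb2 (-0.56), the gene of cyclin B2. After 75th percentile scaling Ccnb2 did not pass it (-0.29, adjusted p = 0.064 from limma). Plk1 (-0.68), a kinase with roles from entry to cytokinesis, and Cdc25b (-0.70), a phosphatase that activates CDK1, did not pass it, nor did Cdc25c (-0.07), a related phosphatase, which turned above 0 under both scalings.

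The small CDK-binding proteins CKS1 and CKS2 were the most abundant and lay on the upper side on the deposited values. Cks1b was at 412, 824 and 409 FPKM in controls and 689, 689 and 672 FPKM in IGF1, so that control replicate 2 exceeded every IGF1 library. Its log2 fold change was 0.40 ± 0.30, with an adjusted p = 0.298 from limma, 0.73 without control replicate 2 and -0.28 after quantile normalization. Cks2 behaved alike, at 0.47, 0.83 and -0.10 in the same 3 settings.

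The chromosomal passenger complex, which corrects faulty attachments and later directs cytokinesis, was split between its 4 subunits. Aurkb (ENSMUSG00000020897, chr11:69045647-69051664, plus strand), its kinase, was at 108, 55.8 and 107 FPKM in controls and at 38.5, 38.6 and 40.9 FPKM in IGF1. The groups did not overlap, and control replicate 2 again lay between. Aurkb had a log2 fold change of -1.12 ± 0.27 with an adjusted p = 0.0443 from limma, and -1.43 without control replicate 2. Incenp, the scaffold of the complex, passed the adjusted p with a smaller log2 fold change of -0.41 (adjusted p = 0.0498 from limma). It did not pass after quantile normalization (-0.15, adjusted p = 0.211 from limma) or 75th percentile scaling (-0.15, 0.193). With length and GC trends removed it did not pass either (-0.23, 0.0645).

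The other passenger subunits had values above 0. Cdca8, which encodes borealin, was at 107, 117 and 107 FPKM in controls and 131, 125 and 121 FPKM in IGF1. Its groups did not overlap but differed little, with a log2 fold change of 0.19 ± 0.10 and an adjusted p = 0.16 from limma. Birc5, which encodes survivin, had a log2 fold change of 0.31 with overlapping groups (adjusted p = 0.321 from limma). Without control replicate 2 the values were 0.23 for Cdca8 and 0.60 for Birc5.

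Among the 7 genes of the spindle checkpoint and the APC/C, 6 were below 0 and 1 above, with a median log2 fold change of -0.67. Ttk (ENSMUSG00000038379, chr9:83834689-83872389, plus strand) encodes MPS1, the kinase that starts checkpoint signalling, and was at 14.4, 8.54 and 16.2 FPKM in controls and 4.68, 5.29 and 5.33 FPKM in IGF1. All 3 IGF1 libraries lay beneath control replicate 2. For Ttk the log2 fold change was -1.16 ± 0.24 with an adjusted p = 0.038 from limma, and -1.42 without control replicate 2.

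Mad2l1, which encodes the checkpoint protein MAD2, passed the adjusted p at a log2 fold change of -0.67 (adjusted p = 0.0287 from limma), and so did Bub3 at -0.45. With length and GC trends removed neither passed, Mad2l1 being at -0.05 (adjusted p = 0.723 from limma) and Bub3 at -0.08 (0.316). The checkpoint genes Bub1 (-1.08) and Bub1b (-0.89) did not pass it with all 6 libraries and were called lower without control replicate 2 (-1.46 and -1.27). Cdc20, the activator of the APC/C, was at -0.20 and above 0 (0.07) after 75th percentile scaling.

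Ube2c, the ubiquitin-conjugating enzyme of the APC/C, was the member of this group above 0. It was at 153, 240 and 158 FPKM in controls and 210, 212 and 220 FPKM in IGF1, and control replicate 2 was the highest of the 6 libraries. The log2 fold change was 0.25 ± 0.20 with an adjusted p = 0.313 from limma, and -0.47 once the length and GC trends were removed.

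The 12 genes of the centromere and kinetochore divided evenly, 6 below 0 and 6 above, with a median log2 fold change of -0.08. Nuf2 (ENSMUSG00000026683, chr1:169497934-169531464, minus strand), a subunit of the NDC80 complex that grips microtubules, was at 39.4, 18.1 and 40.8 FPKM in controls and 11.8, 11.6 and 13 FPKM in IGF1. Control replicate 2 lay above the IGF1 libraries and well below the other controls. The log2 fold change was -1.28 ± 0.32 with an adjusted p = 0.0459 from limma, and -1.65 without control replicate 2.

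The other subunits of the NDC80 complex did not all move with Nuf2. Ndc80 (log2 fold change -0.89, adjusted p = 0.0401 from limma) and Spc25 (-0.57, adjusted p = 0.0315 from limma) passed the adjusted p on the lower side. With length and GC trends removed neither passed, Ndc80 being at -0.37 (adjusted p = 0.0558 from limma) and Spc25 at -0.17 (0.111). Spc25 did not pass after 75th percentile scaling either (-0.30, 0.0544). Spc24, the direct partner of Spc25, was at 96.2, 161 and 98.6 FPKM in controls and 156, 152 and 151 FPKM in IGF1. Its control replicate 2 stood above the IGF1 libraries and the log2 fold change was 0.40 ± 0.22, with an adjusted p = 0.165 from limma and a value of 0.64 without that library.

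Oip5 (ENSMUSG00000072980, chr2:119609512-119618469, minus strand) encodes a subunit of the MIS18 complex, which prepares centromeres for new CENP-A. Its level was 32.7, 30.4 and 31.0 FPKM in controls and 13.2, 14.5 and 13.5 FPKM in IGF1. Unlike the other called genes, all 3 controls lay close together, and leaving out control replicate 2 hardly moved the log2 fold change, from -1.14 ± 0.10 (adjusted p = 0.0286 from limma) to -1.16 ± 0.05. Oip5 overlaps Nusap1 on the opposite strand, and whether strand was used in counting is not given in the sources used here, so reads in the overlap may belong to either gene.

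Cenpa, the centromeric histone itself, was on the upper side, at 66.8, 94.0 and 65.0 FPKM in controls and 104, 100 and 108 FPKM in IGF1. The groups did not overlap, with a log2 fold change of 0.48 ± 0.16 and an adjusted p = 0.0682 from limma. Cenpm, a protein of the constitutive centromere network, was at 28.8, 49.6 and 29.8 FPKM in controls and 59.7, 61.0 and 58.4 FPKM in IGF1. It had the second highest log2 fold change of the 50 genes, 0.76 ± 0.22 with an adjusted p = 0.0536 from limma, and was called higher without control replicate 2 at 1.0 ± 0.04.

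Of the remaining kinetochore genes, Cenpk, also of the constitutive network, passed the adjusted p at a log2 fold change of -0.58. Cenpk did not pass it after quantile normalization (-0.26, adjusted p = 0.144 from limma) or 75th percentile scaling (-0.32, 0.0692). With length and GC trends removed Cenpk was at -0.03 (0.853). Cenpn lay at -0.27, turning to 0.01 after quantile normalization. The motor gene Cenpe (0.11), the corona gene Cenpf (0.39) and the network gene Cenph (0.18) were above 0 with overlapping groups, and none of the 3 passed the adjusted p.

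All 8 genes grouped as kinesins, which encode motors of the spindle, had log2 fold changes below 0, from -1.87 to -0.26. The motor gene Cenpe (0.11) was grouped with the kinetochore genes instead. Kif15 (0.04) was above 0 after quantile normalization and Kif23 (0.0024) after 75th percentile scaling. With length and GC trends removed, Kif15 was at 0.25, Kif23 at 0.31 (adjusted p = 0.0421 from limma) and Kif20b at -0.02. None of the 8 was called with all 6 libraries by limma or voom, 4 were lower at an unadjusted p under 0.05, and 3 were called lower without control replicate 2. Kif20a (ENSMUSG00000003779, chr18:34624613-34633277, plus strand), a motor of cytokinesis, was at 10.2, 1.66 and 10.1 FPKM in controls and 0.826, 0.972 and 0.894 FPKM in IGF1. It spanned the widest range of the 50 genes within the controls, 2.08 on the log2(FPKM + 1) scale.

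Reads for Kif20a numbered 641, 75 and 636 in controls and 40, 43 and 45 in IGF1. Its log2 fold change of -1.87 ± 0.57 was the lowest of the 50, with an adjusted p = 0.0575 from limma, and it was -2.56 ± 0.07 without control replicate 2, the mean of control replicates 1 and 3 being 11.3 times that of IGF1 in FPKM. Kif11 (ENSMUSG00000012443, chr19:37376403-37421859, plus strand), the motor that pushes spindle poles apart, was at 47.2, 14.3 and 47.1 FPKM in controls and 10.6, 11.7 and 10.7 FPKM in IGF1. Its log2 fold change was -1.46 ± 0.46, with an adjusted p = 0.0598 from limma, and -2.01 without control replicate 2.

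Kif22, a motor on chromosome arms, was the most abundant kinesin. Its level was 87.9, 61.0 and 88.1 FPKM in controls and 53.2, 54.3 and 53.1 FPKM in IGF1, so that the groups did not overlap, with a log2 fold change of -0.53 ± 0.17 and an adjusted p = 0.0586 from limma. Kif2c (-1.06), a microtubule depolymerase, was called lower without control replicate 2 (-1.49). Kif4 and Kif20b were both at -0.53, Kif15 at -0.29 and Kif23 at -0.26, and the groups overlapped for these 4 genes.

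Log2 fold changes of the 7 genes of the spindle, midzone and cytokinesis lay between -1.66 and -0.71, and none was above 0 in the alternatives run, 21 for each gene but Anln (20). With length and GC trends removed, several came close to 0, with Nusap1 at -0.07, Hmmr at -0.09, Tpx2 at -0.24 and Racgap1 at -0.28. None of them was called with all 6 libraries by limma or voom, all 7 were lower at an unadjusted p under 0.05, and 5 were called lower without control replicate 2. Ect2 (ENSMUSG00000027699, chr3:27097222-27153878, minus strand), the exchange factor that activates RhoA at the cleavage furrow, was at 30.4, 8.83 and 30.9 FPKM in controls and 5.74, 5.91 and 5.76 FPKM in IGF1. Control replicate 2 was much nearer to IGF1 than to the other controls. The log2 fold change was -1.66 ± 0.47, with an adjusted p = 0.0526 from limma, and -2.22 ± 0.05 without control replicate 2.

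Racgap1, which joins the kinesin KIF23 in the centralspindlin complex that recruits ECT2, was the most abundant of the group. It was at 55.2, 26.5 and 56.5 FPKM in controls and 23.5, 23.3 and 24.3 FPKM in IGF1. The log2 fold change was -0.85 ± 0.30, with an adjusted p = 0.0702 from limma, and -1.20 without control replicate 2. Hmmr (-0.73), a spindle protein, was the only one of the 7 to pass the adjusted p (0.0481 from limma), and did not pass it after quantile normalization (adjusted p = 0.0537 from limma), after 75th percentile scaling (0.0567) or with length and GC trends removed (0.379).

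The values of the others were -1.10 for Anln, which encodes the furrow scaffold anillin, -1.05 for the midzone bundler Prc1, and -0.71 for both Tpx2 and Nusap1, which act on spindle microtubules. Anln had the widest range of the 50 genes within the IGF1 group, 0.48 on the log2(FPKM + 1) scale. Without control replicate 2, Anln, Prc1 and Tpx2 were among the genes called lower, at -1.49, -1.49 and -1.0.

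**Figure D2:**
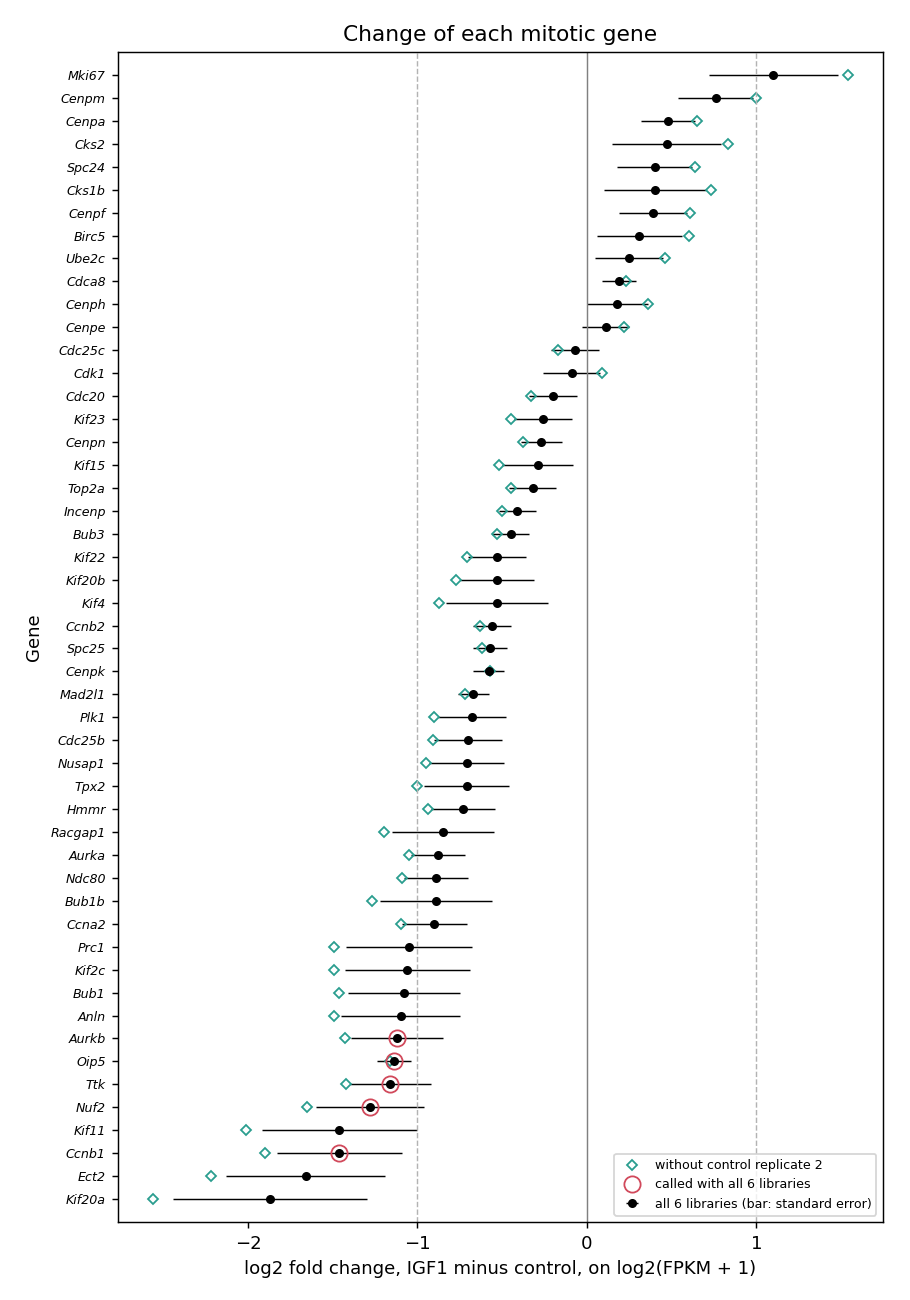
Log2 fold change (IGF1 minus control, on log2(FPKM + 1)) of each of the 50 mitotic genes with all 6 libraries (black points, bars of 1 standard error) and without control replicate 2 (open diamonds), with dashed lines at a fold of 2 and rings around the 5 called genes. Mki67 is at the top at 1.10 and Kif20a at the bottom at -1.87, and for most genes the diamond lies further from 0 than the point. Signs of 12 of the 50 genes, most of them near 0, turned in at least 1 alternative setting.

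Ratios between partner genes within a library are not altered by scaling each library by 1 factor, though quantile normalization and the removal of length and GC trends do alter them. The 9 pairs were chosen after their values were seen, so their ratios are given as a description without a test. The log2 FPKM ratio of Ccnb1 to its kinase Cdk1 was 1.26, -0.64 and 1.24 in controls and -0.76, -0.67 and -0.86 in IGF1. For Aurkb to Birc5 it was 1.18, -0.62 and 1.22 in controls and -0.86, -0.91 and -0.81 in IGF1. In both pairs the subunit that was more abundant in control replicates 1 and 3 was the less abundant one in the IGF1 libraries and in control replicate 2.

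Within the NDC80 complex, the log2 ratio of Nuf2 to Spc24 was -1.29, -3.16 and -1.27 in controls and -3.72, -3.72 and -3.53 in IGF1. The group means differed by -1.75 for Nuf2, -1.33 for Ndc80 and -0.99 for Spc25, each relative to Spc24, and the groups did not overlap in any of the 3 pairs. Oip5 relative to Cenpa differed by -1.68 between the groups, Incenp relative to Cdca8 by -0.62 and Ccna2 relative to Cdk1 by -0.82, the last with overlapping groups. Top2a relative to Mki67 was 3.47, 1.60 and 3.42 in controls and 1.30, 1.32 and 1.36 in IGF1. Hence the levels of these 2 proliferation marks, per length, lay closer together in every IGF1 library than in any control.

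**Figure D3:**
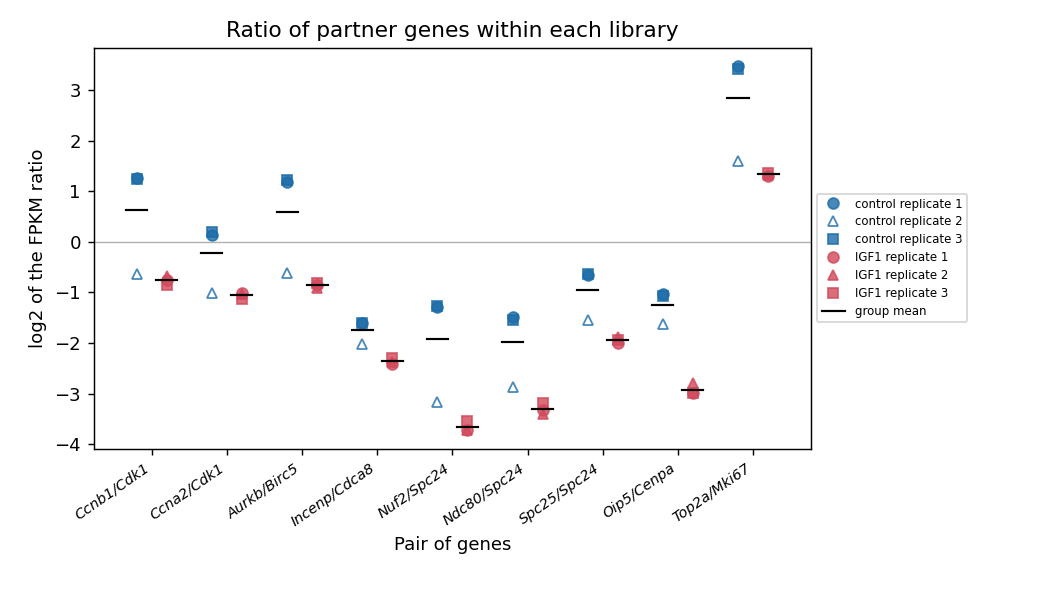
Log2 ratio of FPKM between the genes of 9 pairs within each library, with controls in blue, IGF1 in red, control replicate 2 as open triangles and group means as black lines. Every pair but Ccna2/Cdk1 has IGF1 points wholly below the control points, and control replicate 2 lies nearer to IGF1 than the other controls do in each pair.

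The 5 mitotic genes whose pattern over the 6 libraries was closest to that of Mki67 were Cenpm, Cks2, Cks1b, Spc24 and Cenpa, at Euclidean distances of 0.65, 0.80, 0.90, 0.99 and 1.03 between their centred log2(FPKM + 1) values. All 5 were among the 12 genes above 0. Those 12 comprised Mki67, 6 kinetochore genes, Cks1b, Cks2, Birc5, Cdca8 and Ube2c. None came from the kinesin or midzone groups, the motor gene Cenpe being counted with the kinetochore genes.

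Control replicate 2 was placed for each gene on a line from the mean of control replicates 1 and 3 (0) to the IGF1 mean (1). Among the 39 mitotic genes that differed by over 0.5 on the log2 scale without it, it lay nearer the IGF1 mean for 32 (82.1%, beside 86.2% of all such genes), with a median position of 0.77, beside 0.81. It stayed near the other controls for Oip5 (0.06), Cenpk (-0.06) and Mad2l1 (0.19), and these 3 passed the adjusted p with all 6 libraries. It passed beyond the IGF1 mean for 7 genes (17.9%, beside 21.3%), Birc5, Cenpf, Cks1b, Cks2, Kif15, Kif4 and Spc24. The share of mitotic genes on the IGF1 side was thus close to that of genes at large.

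Direction went with the gene length used for FPKM, in these genes and in the whole table. All 4 mitotic genes under 1500 bases had log2 fold changes above 0 with a median of 0.32, where the median of all genes of that length was 0.53. Between 1500 and 2000 bases 4 were above and 5 below 0, with a median of -0.20 beside -0.08. From 2000 to 7000 bases 33 of 34 were below 0, with a median of -0.72, beside -0.38 for all genes of that length. The 3 genes of 7000 bases or more, Mki67, Cenpf and Cenpe, were above 0 with a median of 0.39, beside 0.00.

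With trends against length and GC content removed, the median log2 fold change of the mitotic genes was -0.23, beside -0.06 for all genes, and no mitotic gene was called by limma (backgrounds 1.64% higher and 1.53% lower). At an unadjusted p under 0.05, 20 of the 50 were lower (background 26.8%) and 9 of the 50 higher (background 21.3%) in that setting. The log2 fold change of Mki67 was then 1.11 and that of Kif20a -1.38. The 5 genes called on the deposited values were at -0.95 (Ccnb1), -0.97 (Aurkb), -0.94 (Oip5), -0.70 (Nuf2) and -0.52 (Ttk). Values close to 0 were those of Mad2l1 (-0.05), Cenpk (-0.03), Bub3 (-0.08), Hmmr (-0.09), Nusap1 (-0.07), Kif20b (-0.02) and Cenpn (-0.01). With control replicate 2 left out in addition, an alternative added after the data were seen, Mki67 and Birc5 were called higher (background 9.65%) and Anln, Aurkb, Ccnb1, Ect2, Kif11 and Kif20a lower (background 9.59%). The part of gene length in the differences between these genes was otherwise not tested.

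**Figure D4:**
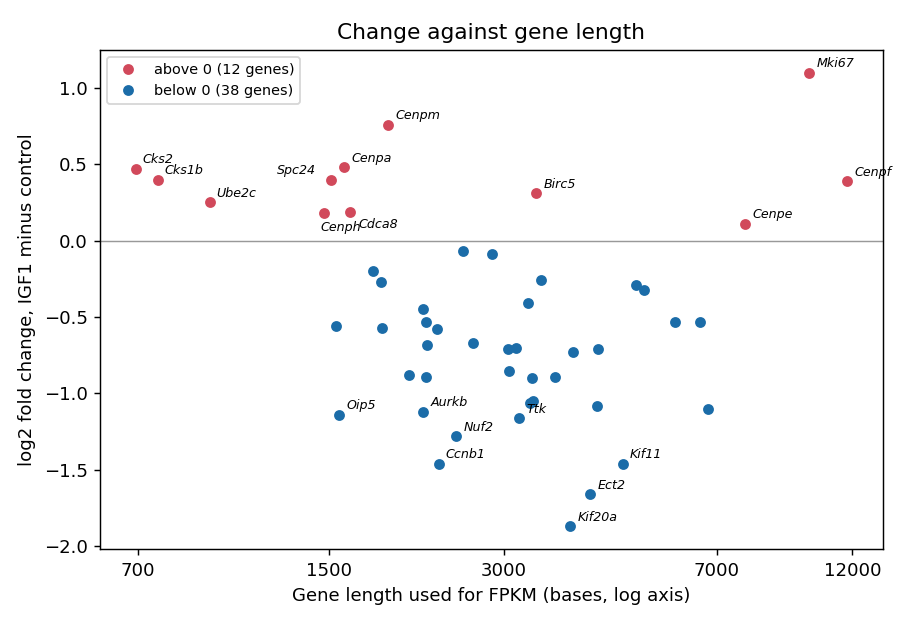
Log2 fold change (IGF1 minus control, on log2(FPKM + 1)) of the 50 mitotic genes against the gene length used for FPKM, in bases on a log axis, with genes above 0 in red and below 0 in blue. The 38 genes below 0 span 1541 to 6758 bases, and the 3 longest genes and the 4 shortest lie above 0. With length and GC trends removed Cks1b, Cks2 and Ube2c turn below 0 and Cdk1, Cdc25c, Kif15, Kif23 and Top2a above 0.

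Other genes of mitosis were taken from 7 further lists, 139 genes of which 136 could be tested. Below 0 lay 105 and above 0 lay 31, with a median log2 fold change of -0.44, beside -0.57 for the 50 genes above. By limma 7 were called lower (5.15%, background 4.63%) and 2 higher (1.47%, background 1.98%), and without control replicate 2 46 lower (33.8%, background 20.6%) and 13 higher (9.56%, background 12.3%).

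Condensin, which compacts chromosomes, had all 8 genes below 0 with a median log2 fold change of -0.68, and 1 called lower, Ncapg2 (-1.05, adjusted p = 0.0315 from limma). Its largest value was that of Ncapg (-1.37), which was at 17.3, 3.64 and 16.6 FPKM in controls and 3.62, 3.43 and 3.26 FPKM in IGF1 and was not called. Of the 15 cohesin and separase genes, 12 were below 0 and none was called by limma or voom, with 8 lower and 1 higher at an unadjusted p under 0.05. The largest value there was -0.95 for Cdca5, which encodes sororin, a protector of cohesion.

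Genes of APC/C subunits and of proteins that act with or on the APC/C were mixed, with 11 of 17 below 0. Anapc13, a small subunit, was called higher, at 52.0, 169 and 48.6 FPKM in controls and 260, 264 and 262 FPKM in IGF1, a log2 fold change of 1.78 with an adjusted p = 0.0498 from limma. Further kinetochore genes were below 0 in 22 of 27, with Mis12 (-1.34) and Ska2 (-1.22), both of the outer kinetochore, called lower and Apitd1 (1.04), which encodes a centromeric histone-fold protein, called higher.

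Of the 32 spindle microtubule genes tested, 28 were below 0, with a median log2 fold change of -0.48. The augmin subunits Haus2 (-1.20) and Haus3 (-1.15) were called lower. Plk4 (-1.64), the kinase of centriole duplication, was not called (adjusted p = 0.0535 from limma). Of 29 regulators of G2 and M, 22 were below 0, and Lin52 (-1.52) and Rbbp4 (-1.22) were called lower. Both belong to the MuvB core that binds CHR elements, whose other genes Lin9 (-1.23), Lin54 (-1.05) and Lin37 (0.47) were not called. Cytokinesis was the list with a positive median, 0.55, with 6 of 8 tested genes above 0 and none called by limma or voom, 3 being higher and 1 lower at an unadjusted p under 0.05. Its largest value was that of Chmp4b (1.64, adjusted p = 0.0729 from limma), which encodes a membrane-cutting ESCRT protein.

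Genes of cells outside the gate were present, and some of them differed between the groups. Flt3 (117 to 188 FPKM), Cd34 (230 to 640), Cd48 (86.6 to 283) and Mpo (1613 to 1705), all of progenitors that an HSC gate leaves out, were high in all 6 libraries. The HSC genes Hoxb5 (0.279 to 0.691 FPKM) and Slamf1 (0.736 to 2.41) were low in all of them. Of the 12 HSC genes tested 0 were called by limma and 1 lower by voom, with 5 lower at an unadjusted p under 0.05 and a median log2 fold change of -0.51.

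The summed FPKM of 10 neutrophil genes was 531 to 532 in control replicates 1 and 3, 251 in control replicate 2 and 84.2 to 98.7 in IGF1, with 4 of 8 tested genes called lower (Ngp, Camp, S100a8 and S100a9), and Ly6g at 0 in control replicate 2 and in all IGF1 libraries. That of 10 B cell genes was 127 to 129 in control replicates 1 and 3, 509 in control replicate 2 and 486 to 508 in IGF1, with all 8 tested genes above 0, none called by limma or voom, 5 higher at an unadjusted p under 0.05, and Ms4a1 and Pax5 under 1 FPKM throughout. That of the 8 progenitor genes was 3778 to 3827, 5896 and 6027 to 6076, with 5 genes above 0 and 3 below, among the latter Cd34 (-1.03), Cd48 (-1.20) and Mpo (-0.01), and none called by limma or voom, 3 being higher and 2 lower at an unadjusted p under 0.05. In FPKM, control replicate 2 lay nearer to the IGF1 libraries than to the other controls in each of these sums. On the log2 scale, where it lay nearer to IGF1 in most mitotic genes, the neutrophil sum had it nearer to the other controls. So did Camp, S100a8 and S100a9, but not Ngp or the other neutrophil genes tested. The part of these lists in the mitotic result was not tested.

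Erythroid genes summed to 42.4 to 114 FPKM in controls and 57.4 to 63.3 FPKM in IGF1 with 0 of 7 tested called by limma or voom and 0 at an unadjusted p under 0.05. Megakaryocyte genes summed to 55.9 to 80.5 and 104 to 114 FPKM, with Gp1bb and Treml1 called higher among 6 tested. T and NK cell genes, of which Nkg7 made up most, summed to 362 to 783 and 777 to 795 FPKM, with Klrd1 called higher among 3 tested and Cd8a at 0 in all IGF1 libraries. The part of these lists in the mitotic result was not tested either.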

How the data were processed

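RNA-seq was performed on HSCs sorted from mouse BM, 3 control and 3 IGF1 libraries. The submitters' processing notes name fastp, HISAT2, StringTie and the builds GRCm38 and mm10, whereas the paper's methods name RSEM. The annotation is not given in the sources used here. What the authors deposited is a single value for each symbol in each library, taken as FPKM because values rose in whole steps that depended on gene length. From the steps, whole reads were recovered for 14829 of 14838 genes above 0 in at least 2 libraries (99.94%, within 0.0002 reads), the depth and the gene lengths, 98.5% of them whole within 0.05 bases. Genes with at least 1 FPKM in 3 libraries were tested on log2(FPKM + 1), a scale that understates changes of low genes, with limma 3.58.1 (lmFit, eBayes with a trend) in R 4.3.3, and called where the fold exceeded 2 and the p-value adjusted by Benjamini-Hochberg over 10449 genes was under 0.05. The test was checked on simulated data in which every library had the spread of the IGF1 group. No outlying control was simulated, so the check does not cover the spread seen here among the controls. The members and lists were chosen with earlier results of these data known.

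Values in every library are given for Mki67, called genes, the 3 highest and 3 lowest log2 fold changes and the most abundant gene of each role. In other mitosis lists, called genes and the largest value were named. Marker genes given singly were chosen after their values were seen. Replicate numbers were not used to pair the libraries in the main fit. Motif positions count from the RefSeq start.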

Additional observations from a re-analysis of the deposited data

How the results depend on the processing

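The log2 fold changes of 38 of the 50 mitotic genes kept their sign in every alternative run, and 12 turned in at least 1. There were 21 alternatives, or 20 for Kif4, Kif20a and Anln, which a minimum of 5 FPKM removed. The calls were less stable. With all 6 libraries, 5 genes were called lower and 0 higher. The count lower was 0 after quantile normalization, 2 with 75th percentile scaling (1 higher), 2 with median-of-ratios scaling (2.68% of all genes), 2 without the filter on low values (1.69%), 3 with a pseudocount of 5 (1.5%) and 0 with length and GC trends removed. It was 15 with no fold threshold (14.1% of all genes) and 10 at a fold over 1.5 (11.1%). Library weights, which gave control replicate 2 a weight of 0.0137, called 18 lower (20.7% of all genes) and 2 higher (12.2%). Leaving out each library in turn gave 0 to 18 lower and 0 to 2 higher, the upper ends without control replicate 2 and the lower without any 1 of the others, when the smallest adjusted p of the 50 genes lay between 0.141 and 0.164. In those fits 0% of all genes were called in either direction. The cause of these changes was not tested.

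With control replicate 2 left out, an alternative chosen after the data were seen, quantile normalization called 11 lower and 2 higher, 75th percentile scaling 11 and 4, and removal of length and GC trends 6 and 2. The median log2 fold change of -0.57 was -0.23 with length and GC trends removed. Mki67, at 1.10, ranged from 0.86 to 1.54 over the left-out libraries, was 1.54 with library weights, and without control replicate 2 was 1.90 with quantile normalization, 1.86 with 75th percentile scaling and 1.54 with length and GC trends removed.

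Signs turned as follows. Quantile normalization gave log2 fold changes of 0.08 for Cdk1, 0.21 for Cdc25c, -0.28 for Cks1b, -0.10 for Cks2, 0.01 for Cenpn and 0.04 for Kif15. Scaling to the 75th percentile gave 0.18 for Cdk1, 0.17 for Cdc25c, 0.07 for Cdc20 and 0.0024 for Kif23, and median-of-ratios scaling 0.08 for Cdk1 and 0.09 for Cdc25c. Library weights gave 0.09 for Cdk1. Over the left-out libraries Cdk1 ranged from -0.19 to 0.09, above 0 without control replicate 2, and Cdc25c from -0.17 to 0.0019, above 0 without control replicate 1. Removal of length and GC trends gave 0.41 for Cdk1, 0.49 for Cdc25c, -0.32 for Cks1b, -0.17 for Cks2, -0.47 for Ube2c, 0.25 for Kif15, 0.31 for Kif23 and 0.20 for Top2a. With control replicate 2 left out as well, it gave 0.75 for Cdk1, 0.55 for Cdc25c, -0.30 for Cks1b, -0.12 for Cks2, 0.06 for Mad2l1, -0.55 for Ube2c, 0.10 for Cenpk, 0.21 for Kif15, 0.32 for Kif23 and 0.24 for Top2a. In the same way, quantile normalization gave 0.27 for Cdk1, 0.21 for Cdc25c, -0.26 for Cks1b and -0.0017 for Cks2, and 75th percentile scaling 0.43 for Cdk1, 0.14 for Cdc25c and 0.01 for Cdc20.

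A replicate block left 0 genes called lower, and 0% of all genes were called in either direction. Deviations of same-numbered libraries of the 2 groups from their group means had correlations of -0.06, -0.05 and 0.01. The control deviations were dominated by control replicate 2, so these values cannot tell whether the numbers pair the libraries. Pairing was not tested otherwise.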
